A study of Homo sapiens with 6 samples.

Results

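Interferon response genes were followed in LN229 cells, an established human glioblastoma line, with LACTB overexpression, and 41 genes were taken by symbol for their known place in interferon signalling. All 41 stood as rows in the deposited table of 24480 gene symbols, DDX58 (also called RIGI) under its older name. Of the 41, 4 encode interferon receptor chains, 4 encode sensors of foreign nucleic acid, 5 encode STAT2 or IRF transcription factors and 28 encode effectors. The study made RNA-seq libraries from LN229 cells labelled as LACTB overexpression (3 libraries) and from LN229 cells labelled as vector (3 libraries). No interferon or other agent is named for either group. LACTB encodes a mitochondrial protein related to bacterial beta-lactamases. The labels give neither the way LACTB was delivered, nor whether cells were pools or clones, nor whether replicates were grown apart. The p-values therefore measure only how these libraries vary, which may be technical variation.

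Type I interferons bind the receptor chains IFNAR1 and IFNAR2, and type II interferon binds IFNGR1 and IFNGR2. Janus kinases on these receptors phosphorylate STAT proteins. A complex with STAT2 and IRF9 binds the interferon-stimulated response element (ISRE) in promoters, and STAT dimers bind the gamma-activated sequence (GAS). The genes so induced block virus entry, degrade or sequester viral RNA, or add the ubiquitin-like protein ISG15 to other proteins. Many are transcribed at a low level without added interferon.

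Values are normalized read counts as deposited. LACTB itself held 4268, 4078 and 4203 in the LACTB libraries, against 458, 515 and 393 in the vector libraries, a log2 difference of 3.21 (SE 0.13, limma adjusted p = 2.9e-14). Column totals ran from 34907394 to 35683869 in LACTB libraries and from 38049489 to 41384595 in vector libraries, and the number of reads behind them is unknown. Of the glial and glioma markers, VIM and NES were high in every library and GFAP was low, at 119 to 126 in LACTB libraries against 72.3 to 75.7 in vector libraries. AQP4, an astrocyte water channel gene, was between 0 and 8.38 in all libraries. SOX10, a transcription factor gene of neural crest and oligodendrocyte cells, stood at 40669 to 42672 in LACTB libraries and 44692 to 59364 in vector libraries. Summed over 6 neural crest and melanocyte markers the level was 41252 to 43317 in LACTB libraries and 48652 to 62480.2 in vector libraries, over 9 glial and glioma markers 91594 to 92219 and 91252 to 97815, and over 6 fibroblast markers 1801 to 1861 and 1132.5 to 1342, each time for LACTB and then vector libraries. The neural crest and melanocyte sum was mostly SOX10. The pigment cell gene TYR was at 0 in all LACTB libraries and 17.3 to 40.7 in vector libraries, and DCT at 23.4 to 82.0 and 1555 to 2071. MITF (log2 difference -1.49) and PMEL (-1.91) of that list were lower too, and MLANA did not exceed 19.0 in any library. The glial and fibroblast sums hid opposite moves of single markers. SOX2 (log2 difference 1.24) and SOX9 (2.52) were higher, and S100B (-1.22) and SLC1A3 (-1.65) lower. In the fibroblast list LUM was higher, at a mean of 1059 in LACTB libraries and 304 in vector libraries. COL1A1 (0.66) was also called higher, COL1A2 (-2.58) and DCN (-0.72) lower, and PDGFRA and PDGFRB did not pass. COL1A2 passed the filter through its vector libraries, with a LACTB mean of 36.4. The DCN groups overlapped, and its call was lost with equal column totals (adjusted p = 0.093), as was that of COL1A1 with quantile normalization (0.095). Of 9 immune cell markers PTPRC, AIF1, CD3E and NKG7 were between 0 and 14.6 in every library. The immune sum of 1653 to 1769.9 in LACTB libraries and 1089 to 1221 in vector libraries was mostly CD68, a lysosomal gene that other cells also express. The part of these shifts in the results below was not tested, and in bulk RNA fewer cells of a type and less RNA per cell cannot be told apart.

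The response genes did not move as one block. With LACTB, 14 of 40 tested members were higher, 10 were lower and 16 did not pass the test. The oligoadenylate synthetase genes, the IFIT genes, the RNA helicase sensors and the PARP9, DTX3L and PARP14 group supplied 10 of the 14 rises, while IFNAR2, IFNGR2, both MX genes, ISG20, BST2 and IFI35 were lower. Groups were compared with limma on log2(value + 1), two-sided, with Benjamini-Hochberg adjustment over all 12939 genes tested and a threshold of 0.05. Fold changes on that scale understate the change of low genes. The 24 members that passed made up 60% of those tested, against 51.9% of all genes. The 14 higher members were 35% of those tested, against 27.4% of all genes, and the 10 lower members were 25%, against 24.6%. These shares lay near the background and are no result about the interferon genes. The median difference of the 40 members was 0.28, against 0.05 for all genes tested.

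Scaling and single libraries moved these counts. With equal column totals 20 members were higher and 7 lower (38.4% and 14.8% of all genes), and the medians became 0.47 for members and 0.24 for all genes. With median centring 10 were higher and 13 lower (20.7% and 32.1% of all genes), with medians of 0.14 for members and -0.09 for all genes. Quantile normalization gave 9 higher and 11 lower (24.9% and 25.4% of all genes). Without vector library 3 only 6 members were called higher, namely IFIH1, OAS3, DTX3L, PARP14, IFI44 and XAF1, and 10 were lower (23.0% and 21.3% of all genes). Differences across all genes followed transcript length, with a median of -0.27 in the shortest of 5 bins and 0.46 in the longest. With a spline on length and GC removed, 13 members were higher and 9 lower (27.6% and 21.8% of all genes), and 10 of the 14 higher calls and 7 of the 10 lower calls remained. The medians were then 0.17 for members and 0.06 for all genes. The members were close to all tested genes in median length of the longest transcript (3554 against 3623 bases) and in median GC (47.6% against 48.3%). The library with the lowest member values was often the same one within a group. LACTB library 1 was the lowest of its group for 27 of 40 members (67.5%), against 35.6% of all genes, and vector library 3 was the lowest of its group for 25 (62.5%), against 33.7%. Vector library 1 was the highest of its group for 24 (60%), against 36.7%.

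**Figure D1:**
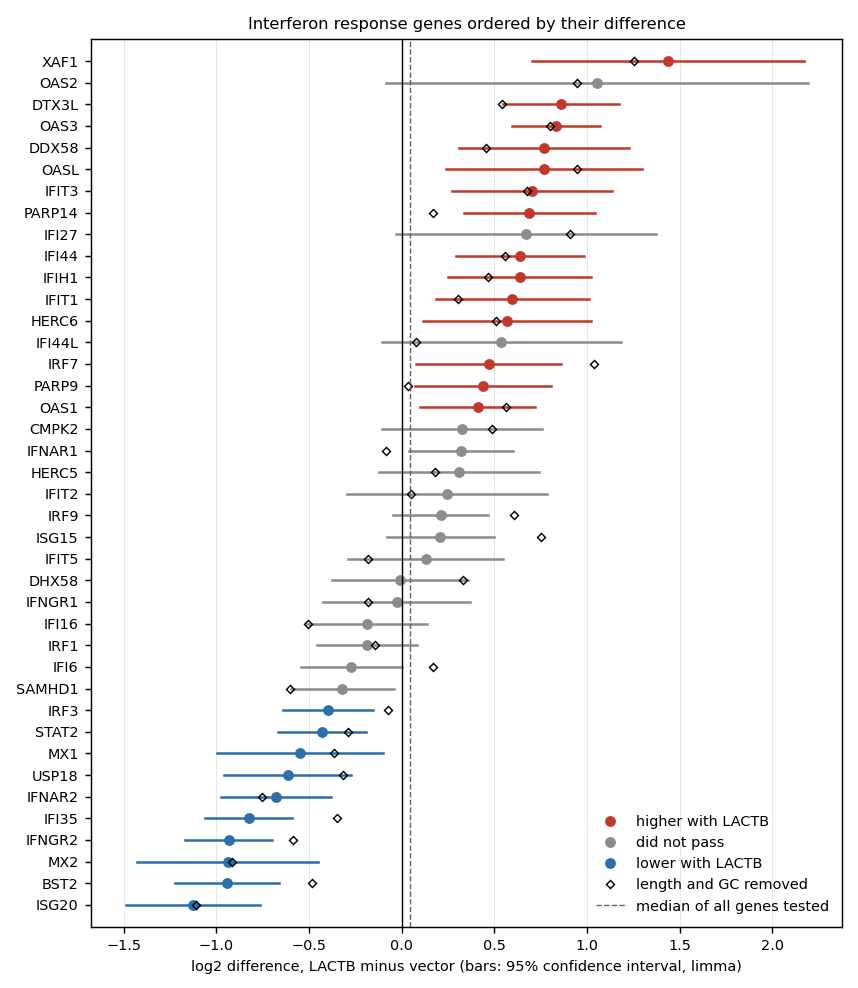
Log2 difference, LACTB minus vector, of the 40 tested interferon response genes, ordered by size, with 95% confidence intervals from limma as bars and the value after removal of length and GC as open diamonds. Red points passed the test as higher, blue points as lower and grey points did not pass, and the dashed line is the median of all genes tested (0.05). XAF1 stands highest at 1.44 and ISG20 lowest at -1.13.

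Of the receptor chains in one gene cluster on chromosome 21, 2 were lower and 1 did not pass. IFNAR2 (chromosome 21, 33229901 to 33265675, GRCh38), a chain of the type I receptor, held 672, 1004 and 799 normalized counts in LACTB libraries, against 1371, 1336 and 1213 in vector libraries. All LACTB libraries lay below all vector libraries, and the log2 difference was -0.68 (SE 0.14, adjusted p = 0.00047). Its partner IFNAR1 (33324477 to 33359862 on the same chromosome) held 1046, 1032 and 1125 in LACTB libraries, against 794, 1010 and 778 in vector libraries. The groups did not overlap, the highest vector library lying just under the lowest LACTB library, and the difference of 0.32 missed the threshold (adjusted p = 0.053). It passed with equal column totals (0.51, adjusted p = 0.0099) and without vector library 2 (0.44, adjusted p = 0.012), and was -0.09 once length and GC were removed (adjusted p = 0.48). IFNGR2 (33402896 to 33479348), the signal-transducing chain of the type II receptor, held 1542, 1620 and 1781 in LACTB libraries, against 3320, 3094 and 3026 in vector libraries. It fell by 0.93 on the log2 scale (SE 0.11, adjusted p = 7.7e-07), with every LACTB library far below the vector libraries, and by 0.58 after length and GC removal. IFNGR1 on chromosome 6, the ligand-binding chain, held 478, 493 and 472 in LACTB libraries, inside the range of 655, 537 and 335 in vector libraries. Its difference was -0.03 (95% confidence interval -0.42 to 0.37, adjusted p = 0.92). Of all 4 receptor chains none passed as higher. The annotation places another protein-coding gene of the same strand on 44.2% of the exon bases of IFNAR2, an antisense gene on 39.1%, and TMEM50B, read from the opposite strand, on 12.8% of those of IFNGR2. Strand use in counting is not stated, so reads of such pairs cannot be told apart.

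Among the sensors both RNA helicases that signal to MAVS were higher. IFIH1, also known as MDA5, which senses long double-stranded RNA (chromosome 2, 162267079 to 162318703), held 313, 321 and 288 in LACTB libraries, against 180, 235 and 181 in vector libraries. The groups did not overlap and the log2 difference was 0.64 (SE 0.19, adjusted p = 0.0067). DDX58, or RIG-I, which senses RNA with a triphosphate end (chromosome 9, 32455705 to 32526324), held 213, 322 and 287 in LACTB libraries, against 212, 150 and 124 in vector libraries. LACTB library 1 lay barely above vector library 1, so the groups just failed to overlap, and the difference was 0.77 (SE 0.22, adjusted p = 0.0060). Leaving out vector library 3 ended that call (adjusted p = 0.057), as did removal of length and GC (0.45, adjusted p = 0.065). DHX58, or LGP2, a related helicase that modulates the other two, held 301, 286 and 259 in LACTB libraries and 302, 246 and 306 in vector libraries. These values overlapped throughout, with a difference of -0.01 (95% confidence interval -0.38 to 0.36, adjusted p = 0.97). IFI16, a sensor of DNA, held 1561, 2411 and 1804 in LACTB libraries and 2663, 2214 and 1699 in vector libraries. Its groups overlapped too (-0.19, adjusted p = 0.33), and it passed as lower only after length and GC removal (-0.51, adjusted p = 0.0044).

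The transcription factors went both ways. STAT2, a subunit of the ISRE-binding complex (chromosome 12, 56341597 to 56360155), held 2416, 2956 and 3008 in LACTB libraries, against 3727, 3743 and 3767 in vector libraries. All LACTB libraries were lower, and the difference was -0.43 (SE 0.11, adjusted p = 0.0035). Equal column totals ended the call (-0.24, adjusted p = 0.092), as did leaving out LACTB library 1 (0.054). IRF9, the DNA-binding subunit of that complex, held 1638, 1707 and 1845 in LACTB libraries and 1652, 1300 and 1549 in vector libraries. Only vector library 1 reached the LACTB range, and the difference of 0.21 did not pass (adjusted p = 0.16). It passed after length and GC removal (0.61, adjusted p = 0.00013), with equal column totals (0.40, adjusted p = 0.010) and without vector library 1 (0.28, adjusted p = 0.033). Another protein-coding gene of the same strand covers 48.4% of the exon bases of IRF9.

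IRF3, the constitutive factor that sensors activate (chromosome 19, 49659569 to 49665875), held 2117, 1957 and 2063 in LACTB libraries, against 2834, 2373 and 2907 in vector libraries. It was lower in all LACTB libraries (-0.40, SE 0.12, adjusted p = 0.0069), but the call was lost after length and GC removal (-0.07, adjusted p = 0.51) and with equal column totals (-0.21, adjusted p = 0.12). The opposite-strand gene BCL2L12 covers 19.3% of its exon bases. IRF7, an interferon-induced factor that amplifies type I interferon transcription (chromosome 11, 612553 to 615999), held 291, 298 and 377 in LACTB libraries, against 214, 280 and 204 in vector libraries. The gap between the groups was narrow, with a difference of 0.47 (SE 0.19, adjusted p = 0.041). The IRF7 call was lost in 8 of 17 alternatives, among them median centring (adjusted p = 0.13), quantile normalization (0.22), no low-value filter (0.063), and leaving out LACTB library 1 (0.053), 2 (0.061) or 3 (0.22) or vector library 1 (0.071) or 3 (0.13). With length and GC removed it was 1.04 (adjusted p = 0.00079). IRF1, an early target of STAT dimers, held 1078, 899 and 1066 in LACTB libraries and 1064, 1159 and 1236 in vector libraries, which overlapped (-0.19, adjusted p = 0.23). It passed as lower with median centring (-0.32, adjusted p = 0.047). The opposite-strand transcript C5orf56 covers 22% of the exon bases of IRF1. Of the 5 factors 1 was higher, 2 were lower and 2 did not pass.

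**Figure D2:**
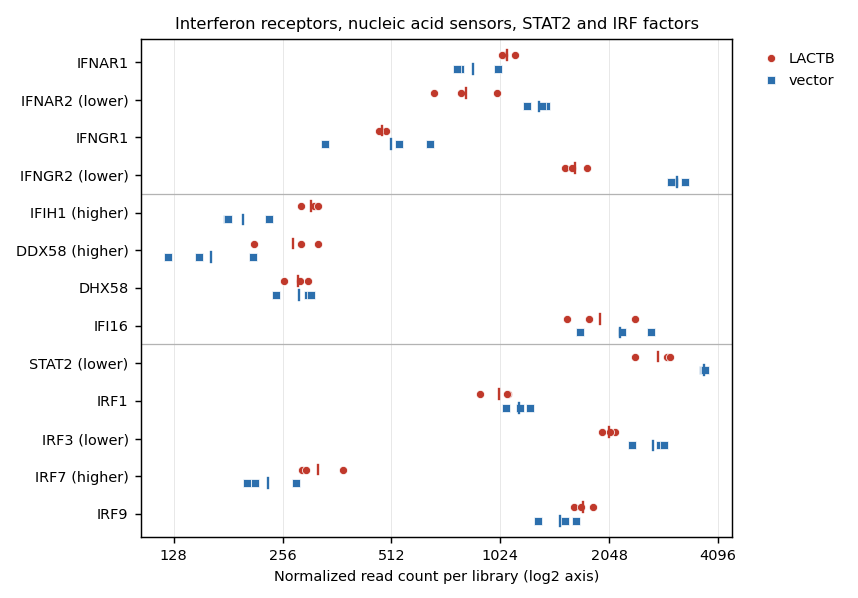
Normalized read count (log2 axis) in each library for the 13 receptor, sensor and transcription factor genes, with LACTB libraries as red circles above vector libraries as blue squares, and a short vertical line at each group mean. Genes marked higher or lower passed the test. IFNGR2 and IFNAR2 sit left in LACTB libraries, IFIH1 sits right, and DHX58, IFNGR1 and IRF1 overlap.

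Promoter sequence is shown for the 4 called members with the largest differences among those whose promoter matched a motif, since members of both directions carried the same element. Promoters came from RefSeq on GRCh38.p14, 250 bases before to 50 bases after the first listed start, and 32 of the 41 members were matched. The ISRE core was searched as GAAANNGAAA and GAS as TTCNNNGAA, on both strands, where N is any base. At least 1 ISRE core stood in 16 of the 32 member promoters (50%), against 3.64% of 27326 promoters of all genes. At least 1 GAS match stood in 7 (21.9%), against 7.88%. Of matched members, 7 of 12 higher genes, 3 of 6 lower genes and 6 of 13 that did not pass had an ISRE core. Each sequence is written 5′ to 3′ on the strand of its gene, with matches in capitals.
ISG20 (chr15:88638766-88639065, plus strand): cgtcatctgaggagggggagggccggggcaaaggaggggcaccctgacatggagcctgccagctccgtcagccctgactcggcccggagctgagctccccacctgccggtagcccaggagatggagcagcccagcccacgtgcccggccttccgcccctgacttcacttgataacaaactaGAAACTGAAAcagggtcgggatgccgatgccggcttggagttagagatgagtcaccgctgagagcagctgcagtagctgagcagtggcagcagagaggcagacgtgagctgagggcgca
BST2 (chr19:17405581-17405880, minus strand): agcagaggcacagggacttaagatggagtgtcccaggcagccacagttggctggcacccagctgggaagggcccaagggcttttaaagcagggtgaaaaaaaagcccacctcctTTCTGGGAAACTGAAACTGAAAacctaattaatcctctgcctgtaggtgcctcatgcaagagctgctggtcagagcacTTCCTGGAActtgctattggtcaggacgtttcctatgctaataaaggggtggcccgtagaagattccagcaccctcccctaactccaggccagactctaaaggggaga
DTX3L (chr3:122564088-122564387, plus strand): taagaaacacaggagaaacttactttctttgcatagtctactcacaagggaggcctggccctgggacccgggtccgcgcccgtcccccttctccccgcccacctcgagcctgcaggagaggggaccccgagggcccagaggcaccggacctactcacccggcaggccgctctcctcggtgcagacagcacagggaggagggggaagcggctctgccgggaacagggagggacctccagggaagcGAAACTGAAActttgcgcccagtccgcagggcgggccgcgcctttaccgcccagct
OAS3 (chr12:112938224-112938523, plus strand): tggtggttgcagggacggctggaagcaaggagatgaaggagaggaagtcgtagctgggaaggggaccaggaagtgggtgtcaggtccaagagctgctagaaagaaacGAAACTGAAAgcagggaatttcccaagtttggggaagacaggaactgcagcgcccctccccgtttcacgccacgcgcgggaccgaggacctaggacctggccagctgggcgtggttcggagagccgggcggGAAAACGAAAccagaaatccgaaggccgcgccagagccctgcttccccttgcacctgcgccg
The match in ISG20 starts 69 bases before the transcription start and that in DTX3L 6 bases before it. OAS3 has matches at 143 and 12 bases before its start. In BST2 a pair of ISRE cores, at 130 and 124 bases before the start, overlap each other, the first of them also overlaps a GAS match at 136 bases before it, and a further GAS match stands 58 bases before it. ISG20 and BST2 were lower with LACTB and DTX3L and OAS3 were higher. The letters GAAACTGAAA occur in all 4, which were chosen for having a match, so this is no result about either direction. Among other called members IFI44 had these letters on the opposite strand. PARP14 (GAAAGCGAAA) and MX1 (GAAACCGAAA) had an ISRE core in other letters.

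The oligoadenylate synthetase family, whose products make the second messenger that activates RNase L, was higher in 3 of 4 members. OAS3 (chromosome 12, 112938352 to 112973249) held 4860, 5243 and 5230 in LACTB libraries, against 2507, 3183 and 2951 in vector libraries. The groups lay well apart, at a log2 difference of 0.83 (SE 0.12, adjusted p = 4.3e-06), and the value stayed at 0.80 after length and GC removal. OASL, a family member that binds RNA without making the messenger (chromosome 12, 121019111 to 121039242), held 155, 116 and 101 in LACTB libraries, against 73.5, 82.0 and 59.7 in vector libraries. The groups did not overlap and the difference was 0.77 (SE 0.26, adjusted p = 0.015), a call lost without LACTB library 1 (adjusted p = 0.11) and without vector library 3 (0.063). OAS1, next to OAS3 on chromosome 12, averaged 722 ± 65.1 in LACTB libraries and 545 ± 76.4 in vector libraries (SD, n = 3 each). It passed at 0.41 (adjusted p = 0.026) and was lost in 6 of 17 alternatives, which were median centring (adjusted p = 0.12), quantile normalization (0.18), and leaving out LACTB library 2 (0.12) or 3 (0.11) or vector library 2 (0.068) or 3 (0.089). OAS2, the third gene of that cluster, held 126, 128 and 132 in LACTB libraries and 142, 85.5 and 18.6 in vector libraries. The vector libraries spread on both sides of the LACTB libraries, and the difference of 1.05 did not pass (adjusted p = 0.11). It passed without vector library 1 (1.65, adjusted p = 0.0039), with equal column totals (adjusted p = 0.047) and without the low-value filter (0.0053).

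The IFIT genes, whose products bind viral RNA or block its translation, lie in one cluster on chromosome 10 and were higher in 2 of 4 cases. IFIT3 (89327894 to 89340971) held 374, 531 and 486 in LACTB libraries, against 395, 279 and 201 in vector libraries. Vector library 1 exceeded LACTB library 1, and the difference was 0.70 (SE 0.21, adjusted p = 0.0076), lost only without vector library 3 (adjusted p = 0.086). IFIT1, which binds RNA lacking cap methylation, averaged 338 ± 38.9 in LACTB libraries and 227 ± 63.3 in vector libraries (SD, n = 3 each), with overlapping groups. Its difference of 0.60 (adjusted p = 0.015) was lost after length and GC removal (0.31, adjusted p = 0.17), with quantile normalization (0.098), and without LACTB library 3 (0.058), vector library 2 (0.078) or vector library 3 (0.088). IFIT2, which differed by 0.24 (95% confidence interval -0.30 to 0.79), and IFIT5, at 0.13 (-0.29 to 0.55), did not pass. In all 4 IFIT genes vector library 1 was the highest of its group and LACTB library 1 the lowest of its own.

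PARP9, DTX3L and PARP14 lie together on chromosome 3 and were all higher. DTX3L, a ubiquitin ligase that works in a complex with PARP9 (122564238 to 122575203), held 928, 1107 and 1216 in LACTB libraries, against 482, 659 and 657 in vector libraries. Every LACTB library exceeded every vector library, at a difference of 0.86 (SE 0.15, adjusted p = 7.8e-05). PARP14, an ADP-ribosyltransferase (122680618 to 122730840), held 408, 499 and 433 in LACTB libraries, against 309, 282 and 240.5 in vector libraries. The groups were apart at 0.69 (SE 0.17, adjusted p = 0.0019), and the call was lost after length and GC removal (0.17, adjusted p = 0.33). PARP9, which starts beside DTX3L on the other strand and shares 217 exon bases with it, averaged 785 ± 82.7 in LACTB libraries and 593 ± 168 in vector libraries (SD, n = 3 each). Its groups overlapped, and the call at 0.44 (adjusted p = 0.041) was lost in 9 of 17 alternatives, falling to 0.04 after length and GC removal (adjusted p = 0.88). The others included median centring (adjusted p = 0.12), quantile normalization (0.18), limma without trend and robust settings (0.12), and leaving out LACTB library 2 (0.061) or 3 (0.13) or vector library 2 (0.067) or 3 (0.28).

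Both MX genes, which encode antiviral dynamin-like GTPases, were lower. MX2 (chromosome 21, 41361943 to 41409390) held 90.3, 170 and 187 in LACTB libraries, against 303, 273 and 248 in vector libraries. All LACTB libraries lay below, at a difference of -0.94 (SE 0.24, adjusted p = 0.0022) that was -0.92 after length and GC removal. MX1, beside it (41420304 to 41459214), averaged 143 ± 31.5 in LACTB libraries and 208 ± 25.8 in vector libraries (SD, n = 3 each). The groups did not overlap, and the call at -0.55 (adjusted p = 0.038) was lost in 8 of 16 alternatives, among them with adjusted p of 0.15 after length and GC removal, 0.19 with equal column totals, 0.057 without the filter, 0.057 without LACTB library 2, 0.24 without LACTB library 3, 0.062 without vector library 1 and 0.12 without vector library 2. MX1 and MX2 thus stood opposite to the OAS and IFIT genes that were called.

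The ISG15 system was split. ISG15, the ubiquitin-like modifier itself, held 746, 869 and 990 in LACTB libraries and 782, 726 and 733 in vector libraries. LACTB libraries 2 and 3 exceeded all vector libraries and library 1 did not, and the difference of 0.21 did not pass (adjusted p = 0.22). It passed after length and GC removal (0.75, adjusted p = 0.00054) and with equal column totals (0.40, adjusted p = 0.031). HERC6 was higher by 0.57 (adjusted p = 0.034), a call lost in 6 of 16 alternatives, which were median centring (adjusted p = 0.091), quantile normalization (0.12), no low-value filter (0.059), and leaving out LACTB library 1 (0.053) or 2 (0.20) or vector library 3 (0.11). Its neighbour HERC5, the main human ligase for ISG15, differed by 0.31 and did not pass (adjusted p = 0.22). USP18, the protease that removes ISG15 and also restrains IFNAR2 signalling, averaged 415 ± 36.2 in LACTB libraries and 644 ± 141 in vector libraries (SD, n = 3 each). It was lower by 0.61 on the log2 scale with no overlap (adjusted p = 0.0037), and missed the threshold after length and GC removal (-0.32, adjusted p = 0.075).

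Enzymes that act on nucleotides or RNA included the deepest fall. ISG20, an exonuclease that degrades RNA (chromosome 15, 88636153 to 88656483), held 184, 216 and 197 in LACTB libraries, against 383, 459 and 469 in vector libraries. The groups were far apart, with a log2 difference of -1.13 (SE 0.17, adjusted p = 1.7e-05), and -1.11 after length and GC removal. SAMHD1, which depletes deoxynucleotides, differed by -0.32 and fell just short (adjusted p = 0.051), although all LACTB libraries lay below all vector libraries. It passed in 9 alternatives, with values from -0.31 with a pseudocount of 1 CPM (adjusted p = 0.048) to -0.60 after length and GC removal (0.00052). CMPK2, a mitochondrial nucleotide kinase, held 170, 159 and 158 in LACTB libraries, all above the 138, 132 and 118 of the vector libraries. Its difference of 0.32 did not pass (adjusted p = 0.20), but did after length and GC removal (0.49, adjusted p = 0.034), with equal column totals (0.52, adjusted p = 0.044) and under limma without trend and robust settings (adjusted p = 0.049). RSAD2 (viperin), beside CMPK2 on chromosome 2, was the one member under the low-value filter. It held 34.7, 29.97 and 44.4 in LACTB libraries and 8.79, 19.0 and 40.0 in vector libraries, which overlapped.

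Among the remaining effectors the called genes were again of both directions. XAF1, a proapoptotic gene (chromosome 17, 6755447 to 6775647), held 71.8, 94.5 and 78.4 in LACTB libraries, against 37.2, 44.0 and 15.2 in vector libraries. The groups did not overlap and its difference of 1.44 (SE 0.35, adjusted p = 0.0018) was the largest rise, at a low level. The vector mean of 32.1 lay under the low-value filter of 37.7, which takes the mean of all libraries. XAF1 therefore passed the filter only through its LACTB libraries (mean 81.6), and was also called without the filter. A transcript annotated on the opposite strand covers 38.3% of its exon bases. BST2 (tetherin), which holds budding virions at the cell surface (chromosome 19, 17402939 to 17405648), held 688, 898 and 769 in LACTB libraries, against 1671, 1374 and 1472 in vector libraries. All LACTB libraries were far lower, at -0.94 (SE 0.14, adjusted p = 6.5e-06), and at -0.48 after length and GC removal (adjusted p = 0.0059). IFI35, a cytosolic interferon-induced protein (chromosome 17, 43006725 to 43014456), held 1358, 1403 and 1501 in LACTB libraries, against 2580.2, 2408 and 2564 in vector libraries. It was lower without overlap at -0.83 (SE 0.11, adjusted p = 3.9e-06), and at -0.35 after length and GC removal (adjusted p = 0.0049).

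IFI44 averaged 507 ± 33.7 in LACTB libraries and 328 ± 56.5 in vector libraries (SD, n = 3 each) and was higher by 0.64 (adjusted p = 0.0030). Its neighbour IFI44L averaged 51.6 ± 7.51 in LACTB libraries and 34.9 ± 0.383 in vector libraries, the latter under the low-value filter. IFI44L did not pass at 0.54 (adjusted p = 0.15), and did with equal column totals (0.73, adjusted p = 0.049) and under limma without trend and robust settings (adjusted p = 0.013). IFI27 ranged widely in both groups, at 84.8, 225 and 197 in LACTB libraries and 165, 80.4 and 69.4 in vector libraries (0.67, adjusted p = 0.10). It passed without LACTB library 1 (1.11, adjusted p = 0.0035), without vector library 1 (1.05, adjusted p = 0.014), and without the low-value filter (adjusted p = 0.031). IFI6, a mitochondrial protein gene, held 3129, 4535 and 4313 in LACTB libraries and 5323, 4580 and 4427 in vector libraries, with overlap between the groups. The IFI6 difference was -0.27 (adjusted p = 0.087), and passed with median centring (-0.41, adjusted p = 0.014) and without LACTB library 2 (-0.37, adjusted p = 0.042). Per kilobase of the longest annotated transcript, IFI6 had the highest level of all members in both groups, 4747 in LACTB cells and 5680 in vector cells, and IFI44L the lowest, 8.78 in LACTB cells and 5.94 in vector cells.

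**Figure D3:**
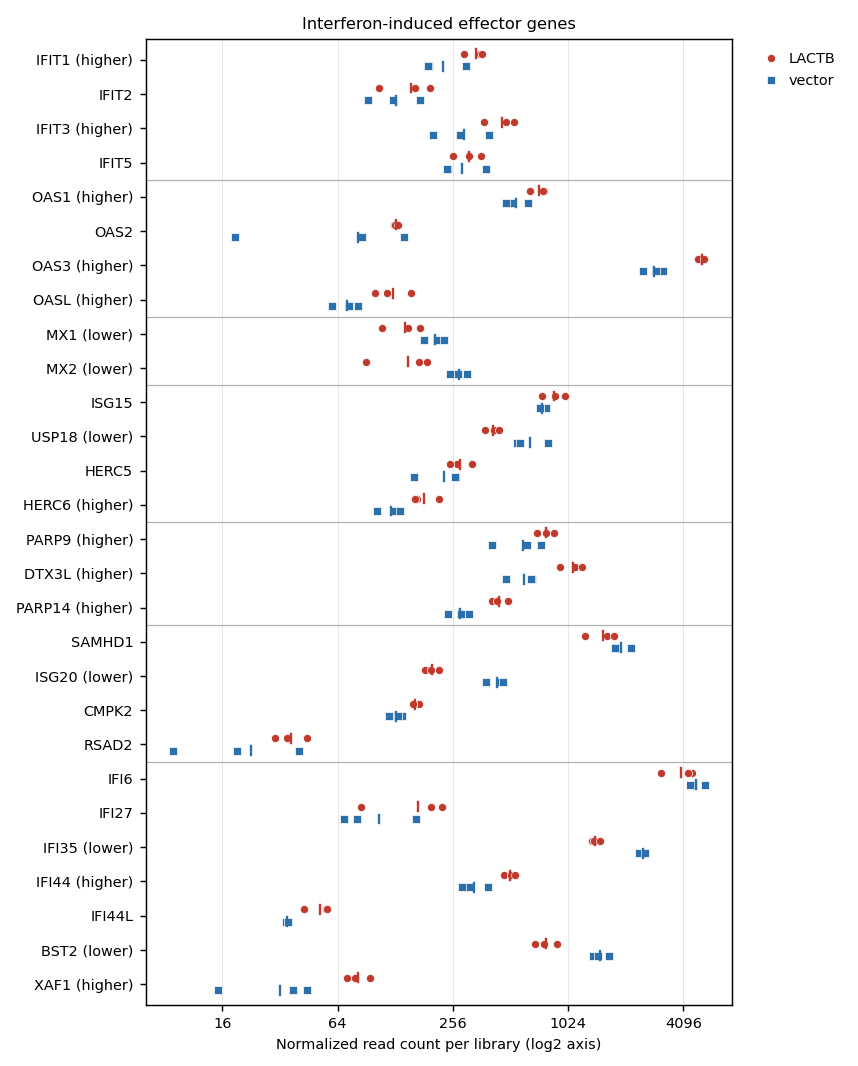
Normalized read count (log2 axis) in each library for the 28 effector genes in their families, with LACTB libraries as red circles above vector libraries as blue squares and a short vertical line at each group mean. Genes marked higher or lower passed the test. OAS3 lies right in LACTB libraries, ISG20, IFI35 and BST2 lie left, and the 4 IFIT genes overlap between the groups.

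Over the 28 effectors 27 were tested, of which 11 were higher, 6 lower and 10 did not pass, against 27.4% higher and 24.6% lower of all genes. Their median difference was 0.41, or 0.18 after length and GC removal, against 0.05 and 0.06 for all genes. All 3 LACTB libraries stood above all 3 vector libraries for 14 of the 40 members tested (35%), against 31.1% of all genes, and below for 11 (27.5%), against 28.7%. The calls of 11 of the 24 called members held in every alternative in which they were tested. Of these IFIH1, OAS3, DTX3L, IFI44 and XAF1 were higher and IFNAR2, IFNGR2, MX2, ISG20, IFI35 and BST2 were lower. XAF1 passed the low-value filter only through its LACTB libraries. The same count was not taken over all genes, so the number of held calls has no background to be read against.

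Neighbouring genes had medians of the same sign as some members and not others. Among the 50 tested genes nearest to IFNAR2, IFNAR1 and IFNGR2 the median difference was -0.31 to -0.30, and -0.32 after length and GC removal, which is the sign of IFNAR2 and IFNGR2 and opposite to the 0.32 of IFNAR1. Around MX1 and MX2 it was -0.47, and -0.41 after length and GC removal. Around the IFIT genes it was 0.30 to 0.33, and 0.06 to 0.07 after length and GC removal. Around IFI44 it was 0.40, and 0.20 after removal. Around ISG20, with a window median of -0.04, and OAS3, at 0.05, neighbours stayed near the median of all genes. The window of XAF1 was at -0.07, and at 0.22 after length and GC removal, which is then the sign of XAF1. For IFIH1 the window median was 0.40, and 0.16 after removal, and for DTX3L 0.23 and 0.07. For IFI35 it was -0.33, and -0.11 after removal, and for BST2 -0.31 and 0.05. The part of the neighbourhood in these differences was not tested.

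**Figure D4:**
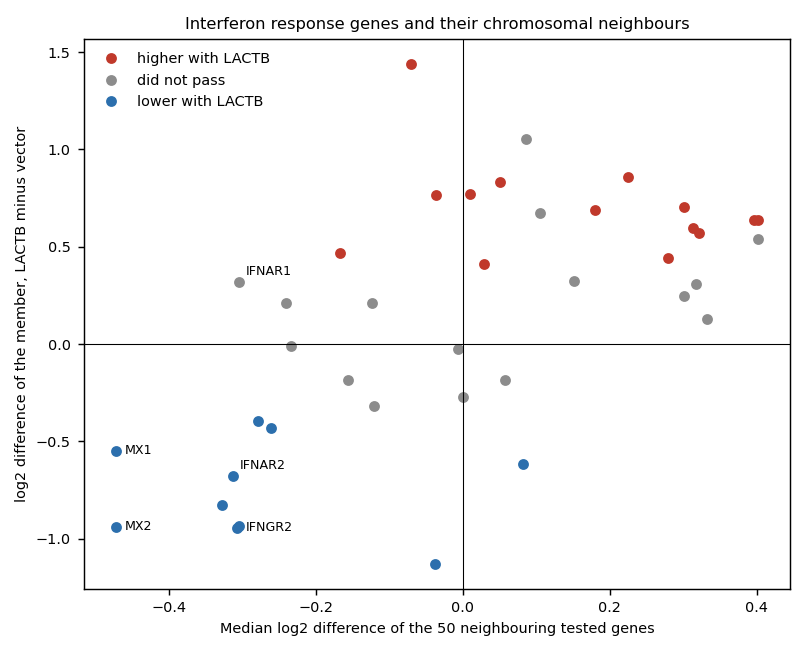
Log2 difference of each tested interferon response gene, LACTB minus vector (vertical axis), against the median log2 difference of the 50 tested genes nearest to it on its chromosome (horizontal axis). Red, grey and blue points are members called higher, not called and called lower, and the 5 chromosome 21 members are named. MX1 and MX2 stand furthest left at -0.47, and ISG20 is lower at a window median near 0.

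Other genes of the pathway, 89 in number and listed by role, were also spread over both directions. Of these 73 stood in the table and 58 were tested, and the rest were not analysed here or lay under the filter. With LACTB 19 of the 58 were higher (32.8%) and 17 were lower (29.3%), against 27.4% and 24.6% of all genes, with a median of 0.04. Of the 10 interferon genes listed 4 could be read, and these were almost without signal. The listed IFNA, IFNW and IFNL genes are not covered. IFNB1 held 1.81, 0 and 0.00861 in LACTB libraries and was listed at 0 in all vector libraries. IFNE held 8.89, 5.15 and 2.20 in LACTB libraries and was listed at 0 in all vector libraries, and IFNG and IFNK did not exceed 4.17 in any library. Each vector library had the same number of genes above 0, 22530, while LACTB libraries had 20494 to 23052. How the deposited processing set zeros and small fractions is unknown, so these are not levels to compare between the groups. CGAS, the cytosolic DNA sensor that signals to STING, did not exceed 6.45 in any library.

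Kinase and STAT genes downstream of the receptors went both ways, and not all passed. JAK1, a kinase of both interferon receptors, held 3003, 3498 and 3424 in LACTB libraries, against 1898, 2042 and 1849 in vector libraries (0.78, adjusted p = 8.6e-06). JAK2, of the type II receptor, was higher by 0.84 (adjusted p = 0.010), a call lost after length and GC removal (0.43, adjusted p = 0.20) and without LACTB library 1 (0.066). TYK2, of the type I receptor, was at 2789 ± 71.0 in LACTB libraries and 3064 ± 296 in vector libraries (SD, n = 3 each) and did not pass (-0.13, adjusted p = 0.34). STAT3 held 4707, 4971 and 5058 in LACTB libraries, against 7210, 8270 and 7936 in vector libraries, and was lower by 0.67 on the log2 scale (adjusted p = 3.2e-05). IL10RB, a chain of the type III interferon receptor in the same chromosome 21 cluster as IFNAR2, was lower by 0.70 on that scale (adjusted p = 9.6e-05).

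The adaptor STING, listed as TMEM173, held 1063, 1208 and 1170 in LACTB libraries, against 2532, 2629 and 2994 in vector libraries. It fell by 1.24 on the log2 scale (SE 0.12, adjusted p = 2.8e-08) with groups far apart. MAVS, the mitochondrial adaptor of IFIH1 and DDX58, held 11156, 11454 and 11311 in LACTB libraries and 7955, 10787 and 11054 in vector libraries. All LACTB libraries lay above, narrowly so for vector libraries 2 and 3, but the difference of 0.20 did not pass (adjusted p = 0.18), and did with equal column totals (0.39, adjusted p = 0.016) and quantile normalization (0.39, adjusted p = 0.011). After length and GC removal the MAVS value was -0.05 (adjusted p = 0.53). TLR3, an endosomal RNA sensor, held 64.4, 62.3 and 45.7 in LACTB libraries, against 34.0, 26.7 and 23.5 in vector libraries. Its vector mean of 28.1 lay under the low-value filter, which it passed only through its LACTB libraries. The TLR3 rise of 1.01 (adjusted p = 0.013) was lost after length and GC removal (0.54, adjusted p = 0.15) and without LACTB library 1 (0.056) or 2 (0.052). The adaptor gene TICAM1 was lower by 0.36 (adjusted p = 0.034), which turned to 0.05 after length and GC removal. That call was lost in 9 of 17 alternatives, among them each of LACTB libraries 1 (adjusted p = 0.055), 2 (0.12) and 3 (0.14) and vector libraries 2 (0.080) and 3 (0.076) left out. TYK2 and MAVS, and TBK1 in the plot of pathway genes, were named for their place in the pathway, with their values known.

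Of the negative regulators SOCS3 was clearest. It held 904, 1006 and 1049 in LACTB libraries, against 1686, 2132 and 2348 in vector libraries (-1.05, SE 0.13, adjusted p = 1.4e-06). The phosphatase gene PTPN1 was lower by 0.35 (adjusted p = 0.014), a call lost with equal column totals (adjusted p = 0.26), quantile normalization (0.15) and without LACTB library 1 (0.051) or 2 (0.072). PIAS1, called higher by 0.47 (adjusted p = 0.047), and IRF2BP1, called lower by 0.30 (adjusted p = 0.048), both changed sign after length and GC removal, to -0.08 for PIAS1 and 0.25 for IRF2BP1, which then passed as higher (adjusted p = 0.019). The PIAS1 call was lost in 9 of 17 alternatives, including without LACTB library 1 (adjusted p = 0.051) or 2 (0.23) or vector library 2 (0.094) or 3 (0.25). The IRF2BP1 call was lost in 10, including without LACTB library 2 (0.20) or 3 (0.19) or vector library 2 (0.074) or 3 (0.21). SOCS3 and STAT3 kept their calls in all 17 alternatives.

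Among 37 further interferon-stimulated genes tested, 14 were higher and 10 lower, against 27.4% and 24.6% of all genes, with a median of 0.22 against 0.05. SAMD9L, an antiviral and growth-restraining gene, held 182, 227 and 174 in LACTB libraries, against 55.4, 66.3 and 34.3 in vector libraries (1.92, SE 0.27, adjusted p = 4.1e-06). The editing enzyme gene APOBEC3B held 4090, 3715 and 3950.1 in LACTB libraries, against 2804, 2258 and 2546 in vector libraries (0.63, adjusted p = 0.00010). RNF213, a large ubiquitin ligase, was higher by 0.72 (adjusted p = 0.00018). In the other direction IFITM2, which blocks fusion of virus with endosomes, held 272, 420 and 396 in LACTB libraries, against 2183, 1919 and 2174 in vector libraries (-2.55, SE 0.15, adjusted p = 2.2e-11). IFITM1 of the same family was lower by 1.60 on the log2 scale (adjusted p = 8.2e-07) and LY6E, a membrane-anchored protein gene, by 1.45 (adjusted p = 1.7e-09). The IFITM genes, and APOBEC3B with its relatives, are related copies, so the division of reads between copies is uncertain. IFITM2 as annotated (chromosome 11, 307631 to 315272) also spans all of IFITM1 (313506 to 315272) on the same strand. SAMD9L, APOBEC3B, RNF213, IFITM2, IFITM1 and LY6E kept their calls in all alternatives in which they were tested.

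**Figure D5:**
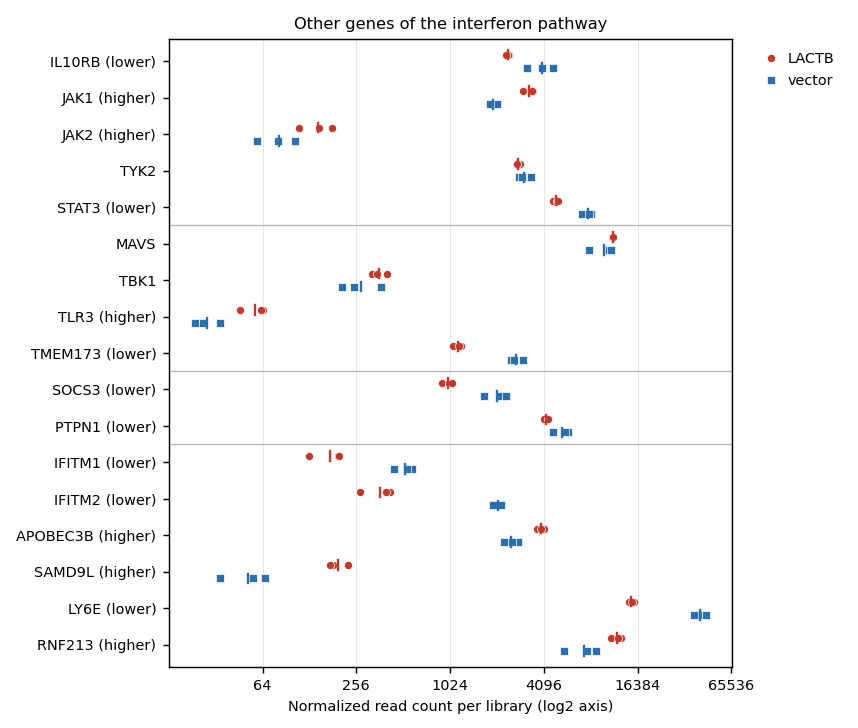
Normalized read count (log2 axis) in each library for 17 other genes of the interferon pathway, with LACTB libraries as red circles above vector libraries as blue squares and a short vertical line at each group mean. Genes marked higher or lower passed the test. JAK1 and SAMD9L lie right in LACTB libraries, and TMEM173, SOCS3, STAT3 and IFITM2 lie left.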

How the data were processed

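RNA was sequenced from 3 LACTB and 3 vector libraries of LN229 cells. Per the submitters' processing notes HISAT2 and hg38 were used; for the counter, its annotation and strand setting, and the normalization, the sources used here name nothing. The authors deposited a signal for each gene in each library, on the scale of normalized read counts and not whole. Values under 1e-10 were set to 0, and of 9 symbols on several rows the row with the higher mean was kept. The best single step left 31.6% to 54.5% of low values whole within 0.05, so reads were not recovered, depth is unknown and count models were not applied. The design's branch for normalized values was applied. The low-value filter kept the 12939 genes whose mean over all 6 libraries reached 1 CPM (37.7 normalized counts). They entered limma 3.58.1 (R 4.3.3) as log2(value + 1), with trend and robust estimation and no covariate. The fit was tested on simulated data. Positions, lengths and GC came from GENCODE 29 on GRCh38 (94.85% of symbols matched, and 98.2% of tested genes had length and GC). Receptors, sensors and factors are given in full, as are the 10 called effectors with the largest differences and, per role and direction, up to 3 pathway genes with the smallest adjusted p; some of the named items are not reported here. Members, lists and rules were chosen with earlier results of these data known. Figures were drawn with matplotlib 3.10.9.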

Additional observations from a re-analysis of the deposited data

How the results depend on the processing

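The number of members called higher was 14 (27.4% of all genes), and 9 with quantile normalization (24.9%). It ranged from 6 to 16 when each library was left out in turn, while the share of all genes ran from 21.7% to 29.9%. The number called lower stayed between 7 and 13 in all 17 alternatives, with 13.6% to 32.1% of all genes. Other pathway genes called lower numbered 17 (24.6% of all genes), and 11 with equal column totals (14.8%). The LACTB difference lay between 3.07 and 3.40 in all alternatives. Deviations from the group means correlated at 0.0228, 0.182 and 0.00342 between libraries of the same replicate number. Deviations of 3 libraries from their mean are not independent and the labels state no pairing, so whether libraries were paired cannot be told. Used as a block, the replicate number gave 16 members higher (28.4% of all genes) and 11 lower (24.8%). The block added OAS2 (adjusted p = 0.00041), IFI27 (0.015) and SAMHD1 (0.034) and lost none. With length and GC removed as well, 13 were higher (28.7% of all genes) and 9 lower (22.7%). LACTB library 2 correlated best with vector library 2 and LACTB libraries 1 and 3 did not correlate best with their own number. With length and GC removed TICAM1 changed sign to 0.054, PIAS1 to -0.079 and IRF2BP1 to 0.251, with or without the block, and the cause was not tested. With a pseudocount of 0.1 all 40 tested members kept their side of the threshold, against 28 of 40 with length and GC removed. A filter at 5 CPM left 31 members to test. Unknown read depth means that no counting error can be given, and members at low values, such as RSAD2, XAF1 and IFI44L, rest on 3 libraries a group alone.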
